A study of Mus musculus with 12 samples.

Results

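Transcripts of the HP1 proteins and of the enzymes and cofactors that methylate histone H3 on lysine 9 (H3K9) were followed in mouse embryonic stem cells (ESCs) that express PRAMEL7. The genes were chosen by name, and 9 of the 50978 genes in the deposited table carry these names: *Cbx1*, *Cbx3*, *Cbx5*, *Suv39h1*, *Suv39h2*, *Setdb1*, *Trim28*, *Ehmt1* and *Ehmt2*. All 9 passed the filter on low values in every comparison.

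The 3 lines were parental E14 ESCs, E14 cells overexpressing wild-type Pramel7 (ESC + H/F-PRAMEL7 WT, the WT line) and E14 cells overexpressing Pramel7 without its N-terminus (ESC + H/F-PRAMEL7 ΔN, the ΔN line). The N-terminus that is missing holds the boxes through which PRAMEL7 contacts the ubiquitin ligase scaffold CUL2, and the study uses the comparison to ask which changes need that contact. It also reports that less of the ΔN protein than of the WT protein was bound to chromatin. The comparison therefore does not isolate the contact with CUL2. The labels give a deletion of 50 amino acids, and the study's text gives a shorter one. All lines grew in medium with 15% serum and LIF, and RNA came from 2 dishes per line by the labels, while the methods speak of triplicates. In both derived lines an HA/FLAG-tagged sequence stood under the CAG promoter at the *Rosa26* locus, and cells were selected with puromycin and isolated as single-cell clones. Whether the dishes of a line came from 1 clone is not stated, and differences between clones and effects of PRAMEL7 cannot be told apart. *Pramel7* itself had 0.237 ± 0.0290 CPM (SD, n = 2; CPM are reads of a gene scaled to a common library total) in parental ESCs, 48.7 ± 3.49 (SD, n = 2) in the WT line and 414.3 ± 23.5 (SD, n = 2) in the ΔN line. The transgene level thus differed 8.51-fold between the derived lines, so that dose and deletion cannot be told apart either.

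Libraries held between 18255085 and 19856165 reads on genes. All 9 ESC markers examined, among them *Pou5f1* and *Sox2*, exceeded 10 CPM in every library, with sums of 5472 to 5946 CPM in parental ESCs, 5248 to 5624 in the WT line and 6419 to 6476 in the ΔN line, where both libraries lay above the other 4. Summed markers of primitive endoderm lay at 6.95 to 9.44 CPM in parental ESCs, 10.96 to 11.95 in the WT line and 9.24 to 10.1 in the ΔN line, with *Gata6*, *Sox17* and *Foxa2* under 1 CPM throughout. Trophectoderm markers summed to 8.1 to 9.6, 8.25 to 11.3 and 13.2 to 14.4 CPM in the same order, highest in the ΔN line, mainly through *Eomes*, and *Cdx2*, *Elf5* and *Gata3* lay under 1 CPM throughout. Mesendoderm markers, 4 in all, lay under 1 CPM each. Fibroblast markers summed to 41.9 to 55.6, 21.1 to 22.4 and 38.8 to 43.7 CPM, nearly all of it *Thy1*, with 5 of 7 under 1 CPM. Neural markers summed to 186.9 to 197.8, 264.7 to 268.6 and 161.9 to 185.6 CPM, nearly all of it *Tubb3*, the only 1 of 4 above 10 CPM. The part of these levels in the results was not tested. In bulk RNA, fewer cells that express a gene and less RNA per cell cannot be told apart.

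Methylation of H3K9 is a hallmark of silent chromatin. SUV39H1 and SUV39H2 place the trimethyl mark on pericentric repeats, SETDB1 places it on retrotransposons and imprinted regions where TRIM28 (KAP1) is brought to DNA by KRAB zinc finger proteins, and the G9a/GLP pair, encoded by *Ehmt2* and *Ehmt1*, places the dimethyl mark in euchromatin. The HP1 proteins read the mark: HP1β is encoded by *Cbx1*, HP1γ by *Cbx3* and HP1α by *Cbx5*.

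Levels were expressed as CPM, and fold changes were tested with limma on log2(CPM + 1), with Benjamini-Hochberg adjustment over the 12914 genes that exceeded 1 CPM in 2 or more libraries. *Cbx1* and *Suv39h1* fell in the WT line. *Cbx1* also fell in the ΔN line, where *Cbx3* and *Cbx5* rose. Between the derived lines, *Cbx3*, *Cbx5* and *Suv39h1* were lower in the WT line. *Setdb1*, *Trim28*, *Suv39h2*, *Ehmt1* and *Ehmt2* passed the test in none of the 3 comparisons. Both comparisons with parental ESCs use the same 2 parental libraries.

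Against parental ESCs, 2 of 9 genes in the WT line passed an adjusted p of 0.05, both lower, where 25.0% of all tested genes passed (8.71% higher and 16.3% lower). For the ΔN line against parental ESCs, 3 of 9 passed, where 19.9% of all tested genes did (6.25% higher and 13.6% lower). Between the derived lines 3 of 9 passed, all lower in the WT line, where 20.4% of all tested genes did (10.9% higher and 9.45% lower). A group of 9 is too small to set such shares against the background, so the counts say nothing particular about the group. The median log2 fold change of the 9 genes was -0.08, -0.03 and -0.04 in the 3 comparisons, and that of all tested genes was -0.08, -0.06 and -0.02. The study's results name a P value of 0.05 and a log2 fold change of 0.58, while its methods speak of an adjusted P value. The study's limits are taken here as an unadjusted p of 0.05 and an absolute log2 fold change above 0.58. With them the counts were 2, 0 and 3 of 9, where 13.7%, 12.3% and 12.4% of all tested genes passed.

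**Figure D1:**
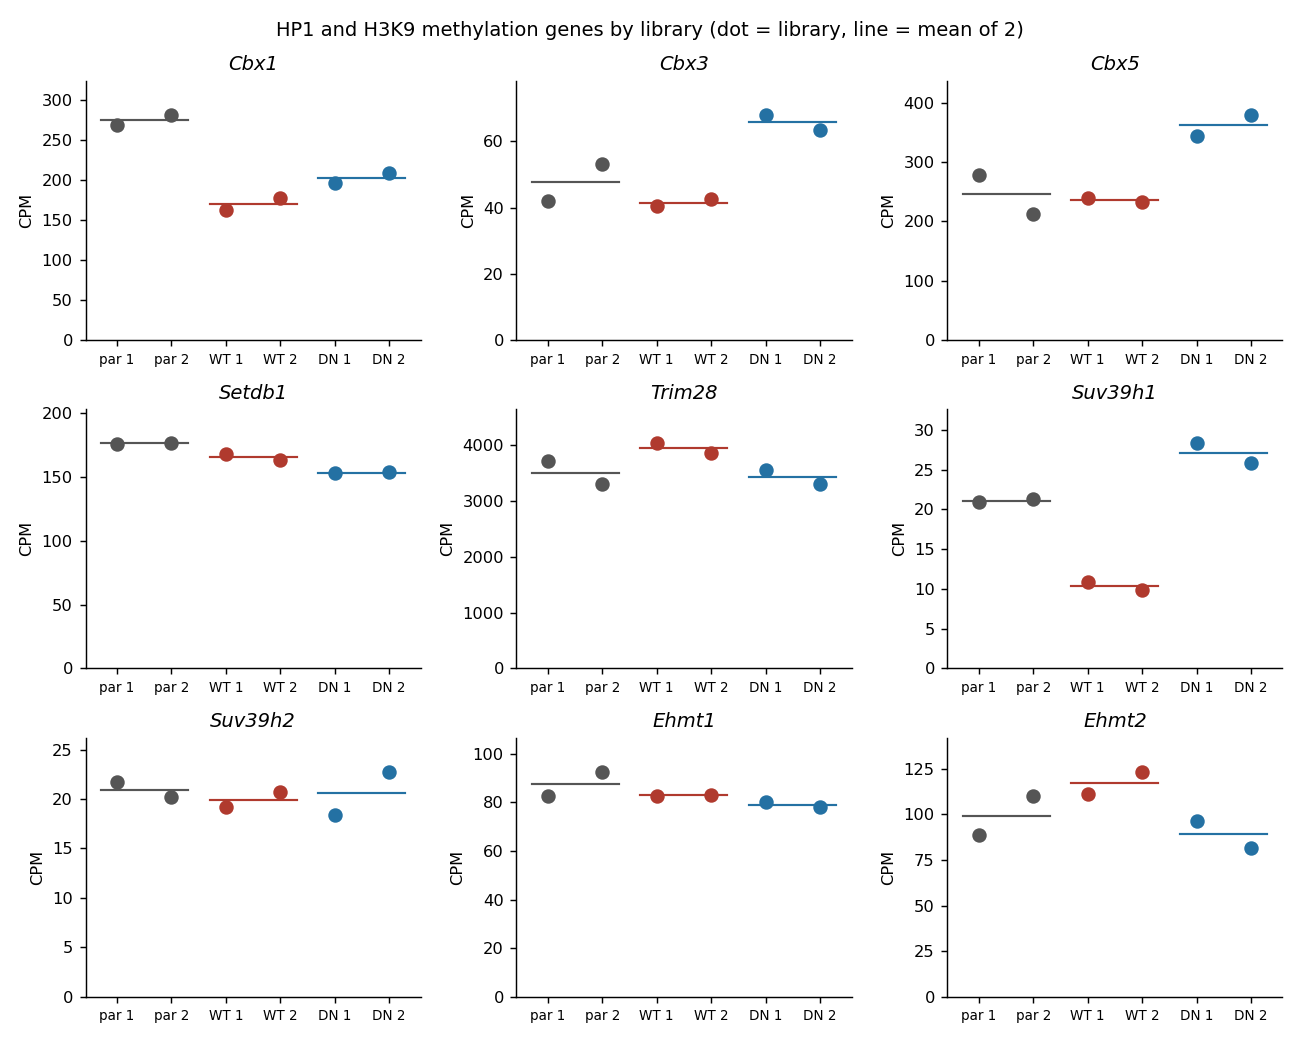
CPM of each of the 9 genes (vertical axis, from 0) in the 6 libraries (horizontal axis: par, parental ESCs; WT and DN, the 2 derived lines). Dots are libraries and lines are means of 2; *Cbx1* lies lower in all 4 libraries of the derived lines than in both parental ones, and *Suv39h1* lies at 9.86 and 10.8 CPM in the WT line against 20.9 and 21.3 CPM in parental ESCs.

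*Cbx1* lies on chromosome 11 from 96789127 to 96808640 on the plus strand (GRCm38). HP1β is a reader of methylated H3K9 in pericentric heterochromatin and in euchromatin. It measured 269.8 and 281.9 CPM in the parental libraries, 162.9 and 177.8 CPM in the WT line and 196.1 and 209.3 CPM in the ΔN line. The 3 lines did not overlap: both derived lines lay below parental ESCs, and the WT line lay lowest. The mean was 1.62-fold lower in the WT line than in parental ESCs, with a log2 fold change of -0.69 (SE, standard error, 0.09, limma adjusted p = 0.00127). Its mean in the ΔN line was 1.36-fold lower, with a log2 fold change of -0.44 (SE 0.09, limma adjusted p = 0.00713). The derived lines differed by -0.25 on the log2 scale (95% interval -0.44 to -0.06, limma adjusted p = 0.0691), which did not pass. That difference passed when only those lines were fitted (limma adjusted p = 0.0158) and without parental library 1 (0.0152) or 2 (0.0153). Without ΔN library 1, the fall in the ΔN line was -0.40 with an adjusted p of 0.0817 in limma. With RPKM as deposited, the log2 fold changes were -0.44 in the WT line and -0.29 in the ΔN line.

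*Cbx5* lies on chromosome 15 from 103191544 to 103239816 on the minus strand. HP1α is concentrated at pericentric heterochromatin. The parental libraries gave 278.5 and 212.7 CPM, the WT line 238.6 and 233.3 CPM and the ΔN line 343.8 and 379.6 CPM. Both ΔN libraries lay above the other 4, whereas the WT libraries lay between the 2 parental ones. *Cbx5* rose 1.47-fold in the ΔN line, with a log2 fold change of 0.57 (SE 0.12, limma adjusted p = 0.0111). That call was lost without the filter (limma adjusted p = 0.0541). The log2 fold change in the WT line was -0.04 (95% interval -0.32 to 0.23, limma adjusted p = 0.816), and its sign turned with median-ratio scaling. The direct difference of the WT from the ΔN line was -0.61 (SE 0.12, limma adjusted p = 0.00802). The parental libraries differ from each other more than those of either derived line do, and the rise in the ΔN line had an adjusted p of 0.0549 without ΔN library 1 and 0.0994 without ΔN library 2. Its size was 0.37 without parental library 2, and 0.27 with RPKM as deposited (limma adjusted p = 0.0597), where the direct difference was -0.295. The direct difference had an adjusted p of 0.0665 without WT library 1, 0.0787 without WT library 2 and 0.0916 without ΔN library 2.

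*Cbx3* lies on chromosome 6 from 51470360 to 51483704 on the plus strand. HP1γ is found on euchromatin and on bodies of active genes as well as in heterochromatin. It measured 42.1 and 53.3 CPM in parental ESCs, 40.4 and 42.5 CPM in the WT line and 68.1 and 63.5 CPM in the ΔN line. Both ΔN libraries lay above all others, and the WT and parental libraries overlapped. The rise in the ΔN line was 1.38-fold, with a log2 fold change of 0.47 (SE 0.12, limma adjusted p = 0.026). That call was lost without the filter (limma adjusted p = 0.0736), with only the lines compared (0.06) and without the trend (0.0587). The WT line differed from parental ESCs by -0.19 (95% interval -0.46 to 0.09, limma adjusted p = 0.279) and from the ΔN line by -0.65 (SE 0.12, limma adjusted p = 0.00585). The rise in the ΔN line had an adjusted p of 0.0609 without WT library 1, 0.0607 without WT library 2, 0.174 without ΔN library 1 and 0.0969 without ΔN library 2, and its size was 0.30 without parental library 1. The difference of the derived lines had an adjusted p of 0.0712 without WT library 1, 0.0537 without WT library 2 and 0.0575 without ΔN library 1, and 0.0664 (log2 difference -0.45) with a loess correction for GC content and exon length. Without parental library 1, the WT line was lower than parental ESCs by -0.36 (limma adjusted p = 0.016).

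The level of *Cbx3* is also uncertain because of copies in the genome. Stretches of at least 100 bases and 95% identity cover 93.1% of its transcript at 7 other places, so reads could match several places. For *Cbx1* such stretches cover 6.14% and for *Setdb1* 12.6%. For the other 6 genes no such stretch was found. The 5 *Cbx3* pseudogenes listed in the table held 11 reads over the 6 libraries together, against 772 to 1356 reads per library on *Cbx3*.

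Scaled by exon length, HP1 transcripts added up to 101.1 and 98.5 CPM per kb in parental ESCs, 71.3 and 74.6 in the WT line and 95.4 and 101.7 in the ΔN line. The WT libraries lay below the other 4, which overlapped. *Cbx1* supplied 62.5% and 67.0% of that sum in parental ESCs, 53.4% and 55.8% in the WT line and 48.1% and 48.2% in the ΔN line. *Cbx5* supplied 30.6% and 24.0%, then 37.1% and 34.7%, then 40.0% and 41.4%. As counted, *Cbx3* stayed the smallest share, with 6.94% to 11.9% over the 6 libraries. The share of *Cbx1* was thus lower in both derived lines than in parental ESCs, with a lower sum in one line and an overlapping sum in the other. These sums are descriptions with no test, and sums and shares rest in part on the uncertain level of *Cbx3*.

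**Figure D2:**
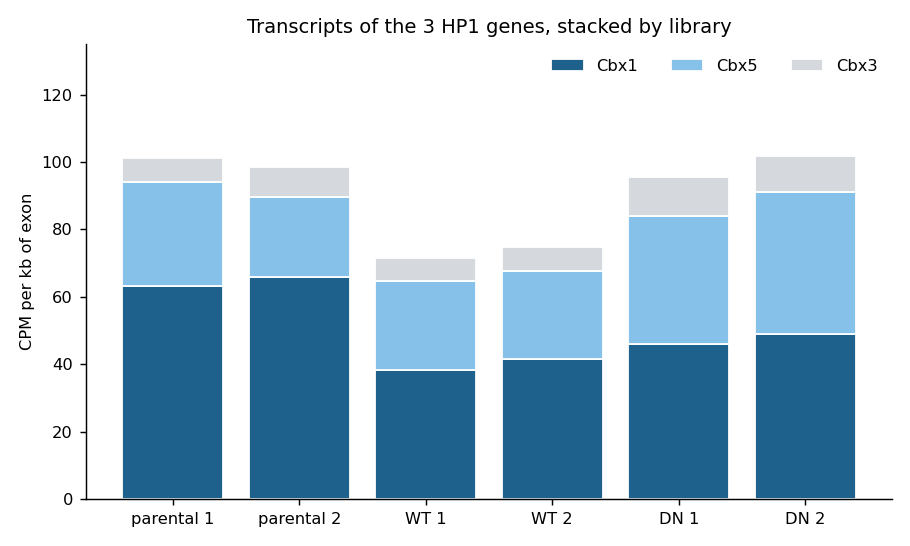
Stacked bars of the HP1 transcripts *Cbx1*, *Cbx5* and *Cbx3* in CPM per kb of exon (vertical axis, from 0) for the 6 libraries (horizontal axis). The whole bars reach 71.3 and 74.6 in the WT line and 95.4 to 101.7 in the other 4 libraries, while the dark *Cbx1* segment is shorter in both derived lines.

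*Suv39h1* lies on chromosome X from 8061171 to 8074760 on the minus strand. It encodes the methyltransferase that trimethylates H3K9 in pericentric heterochromatin together with SUV39H2. It measured 20.9 and 21.3 CPM in parental ESCs (405 and 392 reads), 10.8 and 9.86 CPM in the WT line (214 and 179 reads) and 28.3 and 25.8 CPM in the ΔN line (564 and 488 reads). The 3 lines did not overlap, and the WT line lay lowest and the ΔN line highest. The mean fell 2.04-fold in the WT line, with a log2 fold change of -0.96 (SE 0.12, limma adjusted p = 0.00137). The ΔN mean was 1.28 times the parental mean, with a log2 fold change of 0.34 (95% interval 0.07 to 0.62, limma adjusted p = 0.0779), which did not pass, whereas it passed with median-ratio scaling (0.42, limma adjusted p = 0.0379) and with a loess correction for GC content and exon length (0.34, limma adjusted p = 0.0415). The direct difference of the WT from the ΔN line was -1.31 (SE 0.12, limma adjusted p = 0.000164). The fall and the direct difference passed in all 16 alternatives that gave a value. Of the exon bases of *Suv39h1*, 767 are shared with the antisense gene Gm14820, and without strand in the library preparation their reads cannot be told apart.

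*Suv39h2*, the paralogue, lies on chromosome 2 from 3455815 to 3475031 on the minus strand. It measured 21.7 and 20.2 CPM, 19.2 and 20.7 CPM, and 18.4 and 22.8 CPM in parental, WT and ΔN libraries. All 3 lines overlapped. Its log2 fold change was -0.07 in the WT line (95% interval -0.37 to 0.23, limma adjusted p = 0.738) and -0.03 in the ΔN line (95% interval -0.33 to 0.27, limma adjusted p = 0.905), and both signs turned with median-ratio scaling. Its exons share 440 bases with *Dclre1c* and Gm13184 on the other strand. Per exon length, *Suv39h1* supplied 44.6% and 46.9% of the summed SUV39H transcripts in parental ESCs, 32.1% and 28.5% in the WT line and 56.3% and 48.7% in the ΔN line. The larger share of the pair thus came from *Suv39h2* in parental and WT libraries, and from *Suv39h1* in 1 of 2 ΔN libraries.

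*Setdb1* lies on chromosome 3 from 95323525 to 95357202 on the minus strand. Its values were 176.0 and 176.4 CPM in parental ESCs, 167.7 and 163.3 CPM in the WT line and 152.8 and 153.5 CPM in the ΔN line. The lines did not overlap, with parental ESCs highest and the ΔN line lowest. The log2 fold change was -0.20 in the ΔN line (95% interval -0.38 to -0.02, limma adjusted p = 0.106) and -0.09 in the WT line (95% interval -0.27 to 0.09, limma adjusted p = 0.426). Neither passed, and the sign in the WT line turned with median-ratio scaling.

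*Trim28*, the corepressor through which KRAB zinc finger proteins reach SETDB1, lies on chromosome 7 from 12999114 to 13031035 on the plus strand. It was the most abundant of the 9 genes, with 3718 and 3299 CPM in parental ESCs, 4033 and 3863 CPM in the WT line and 3555 and 3294 CPM in the ΔN line. Both WT libraries lay above the other 4. The log2 fold change was 0.17 in the WT line (95% interval -0.05 to 0.40, limma adjusted p = 0.226) and -0.03 in the ΔN line (95% interval -0.26 to 0.19, limma adjusted p = 0.853). The sign turned with median-ratio scaling in the ΔN line.

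*Ehmt2*, which encodes G9a, lies on chromosome 17 from 34898469 to 34914052 on the plus strand. It measured 88.6 and 109.9 CPM in parental ESCs, 111.2 and 123.4 CPM in the WT line and 96.6 and 81.6 CPM in the ΔN line. Both WT libraries lay above all others by a small margin, and the ΔN and parental libraries overlapped. The direct difference of the WT from the ΔN line was 0.40 (95% interval 0.11 to 0.68, limma adjusted p = 0.0528) and did not pass. It passed when only the 2 derived lines were fitted (limma adjusted p = 0.0022), with median-ratio scaling (0.0405) and without parental library 1 (0.00203) or 2 (0.00217). Against parental ESCs the log2 fold change was 0.24 in the WT line (95% interval -0.04 to 0.53, limma adjusted p = 0.179) and -0.15 in the ΔN line (95% interval -0.43 to 0.13, limma adjusted p = 0.445). The former passed without parental library 2 (0.40, adjusted p = 0.00993) and the latter without parental library 1 (-0.31, adjusted p = 0.0386).

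*Ehmt1*, which encodes GLP, the partner of G9a, lies on chromosome 2 from 24789928 to 24919614 on the minus strand. Its values were 82.6 and 92.6 CPM, 82.8 and 83.0 CPM, and 80.0 and 77.9 CPM in parental, WT and ΔN libraries. The ΔN libraries were the lowest 2 of the 6, and the WT libraries lay within the parental range. The log2 fold change was -0.08 in the WT line (95% interval -0.28 to 0.13, limma adjusted p = 0.57), with its sign turned by median-ratio scaling, and -0.15 in the ΔN line (95% interval -0.35 to 0.06, limma adjusted p = 0.308).

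**Figure D3:**
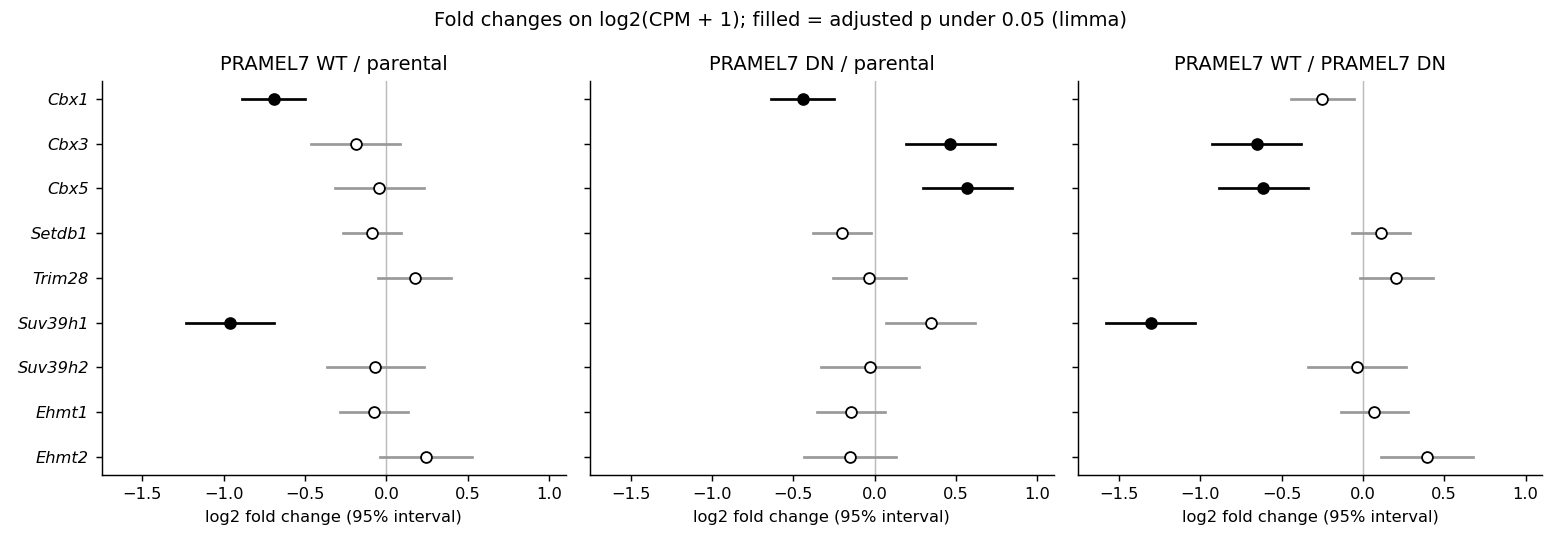
Log2 fold changes on log2(CPM + 1) (horizontal axis) of the 9 genes (vertical axis) in the 3 comparisons, with 95% intervals; filled dots have an adjusted p under 0.05 in limma. *Suv39h1* has the largest change of the group in the WT line against both other lines, at -0.96 and -1.31, and the intervals of *Trim28* and *Suv39h2* span 0 in all 3 panels.

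Per exon length, the order in parental ESCs was *Trim28* at 843.8 CPM per kb, *Cbx1* at 64.6, *Cbx5* at 27.3, *Setdb1* at 25.7, *Ehmt2* at 18.1, *Ehmt1* at 10.8, *Cbx3* at 7.95, *Suv39h2* at 4.75 and *Suv39h1* at 4.0. Among neighbours in this order, only *Cbx5* and *Setdb1* overlapped between libraries. In the WT line *Cbx1* fell to 39.9 and *Suv39h1* to 1.96 CPM per kb, and the order of the 9 genes was the same, with no overlap between neighbours. In the ΔN line *Cbx3*, at 10.97, stood above *Ehmt1*, at 9.73, and *Suv39h1*, at 5.13, stood above *Suv39h2*, at 4.67, with libraries that overlapped in the latter pair. The scale counts all exons of a gene, whichever transcript is made. The place of *Cbx3* in the order is uncertain because of its copies in the genome.

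The sequence before the gene start is shown for *Cbx1*, *Cbx5* and *Suv39h1*, the genes that changed and whose transcripts do not recur elsewhere over most of their length. These are the 250 bases before the first RefSeq start (GRCm38.p6), written along the gene's own strand from 5′ to 3′. Capitals mark matches on either strand to the GC box, GGGCGG, to the CCAAT box, written as these letters, and to the palindrome TGCGCA. Their matches do not overlap here.
Cbx1, chr11:96788885-96789134, plus strand: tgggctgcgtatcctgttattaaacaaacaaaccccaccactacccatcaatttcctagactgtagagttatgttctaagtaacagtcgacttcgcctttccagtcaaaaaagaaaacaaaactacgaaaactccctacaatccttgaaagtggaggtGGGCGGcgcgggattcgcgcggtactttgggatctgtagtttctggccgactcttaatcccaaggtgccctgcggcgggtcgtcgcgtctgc
Cbx5, chr15:103239853-103240102, minus strand: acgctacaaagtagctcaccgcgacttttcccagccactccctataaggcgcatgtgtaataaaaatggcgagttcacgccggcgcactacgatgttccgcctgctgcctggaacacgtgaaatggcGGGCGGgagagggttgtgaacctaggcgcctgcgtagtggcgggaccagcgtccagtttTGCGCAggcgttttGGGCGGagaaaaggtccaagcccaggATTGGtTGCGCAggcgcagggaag
Suv39h1, chrX:8074761-8075010, minus strand: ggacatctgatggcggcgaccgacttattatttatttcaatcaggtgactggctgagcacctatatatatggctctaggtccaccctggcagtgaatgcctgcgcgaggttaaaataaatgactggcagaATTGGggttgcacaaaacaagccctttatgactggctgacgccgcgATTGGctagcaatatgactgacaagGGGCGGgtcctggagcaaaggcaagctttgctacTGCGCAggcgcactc

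The *Cbx1* window held 1 GC box. The *Cbx5* window held 2 GC boxes, 2 copies of the palindrome and 1 CCAAT box, and the *Suv39h1* window held 2 CCAAT boxes, 1 GC box and 1 palindrome. A GC box stood in all 3 windows. Over 32851 mouse promoters of the same length, 32.7% held a GC box, 33.8% a CCAAT box and 6.43% the palindrome. The *Cbx1*, *Cbx5* and *Suv39h1* windows held 16, 22 and 11 CG dinucleotides, against a median of 6 over all promoters. *Cbx5* and *Suv39h1* have a second start, not shown, whose windows held 7 and 25. The second *Cbx5* window held 1 GC box and 1 palindrome, and the second *Suv39h1* window 1 GC box. Neither held a CCAAT box. A match is a run of letters and says nothing on binding.

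Most genes beside *Cbx1* had negative fold changes in both derived lines, and under 50% of them passed as lower. Of 167 other tested genes within 5 Mb, 144 had a negative log2 fold change in the WT line, 73 passed as lower and 6 passed as higher. Over all tested genes, 16.3% passed as lower and 8.71% as higher there. The median of the 167 genes was -0.35, against -0.08 over all tested genes. For the ΔN line, 140 were negative, 67 passed as lower and 10 as higher, and the median was -0.29, against -0.06. Over all tested genes, 13.6% passed as lower and 6.25% as higher in that line. The medians of the 1101 other genes on chromosome 11 were -0.36 and -0.33. *Cbx1* was lower than these medians, and 16.3% of the other genes on chromosome 11 lay below it in the WT line and 33.5% in the ΔN line.

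Around *Cbx3* on chromosome 6, the neighbours had a positive median in the ΔN line. Of 55 genes within 5 Mb, 17 passed as higher and 2 as lower there, where 6.25% and 13.6% of all tested genes did. A negative value was held by 8 of the 55, and their median was 0.27. The 602 other tested genes on chromosome 6 had a median of 0.25 in the ΔN line. Between the derived lines the median of the 55 genes was -0.40. In the WT line 26 of them passed as lower and 3 as higher, where 9.45% and 10.9% of all tested genes did. The 98 genes near *Cbx5* had medians of -0.01 in the WT line and -0.04 in the ΔN line, against -0.08 and -0.06 over all tested genes. The 46 genes near *Suv39h1* had -0.04 and -0.21, and 35 of them were negative in the ΔN line. Of the other 448 genes on chromosome X, 5.13% lay below *Suv39h1* in the WT line and 0.22% between the derived lines. The part of these shifts of chromosomes 11 and 6 in the changes of *Cbx1* and *Cbx3* was not tested.

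**Figure D4:**
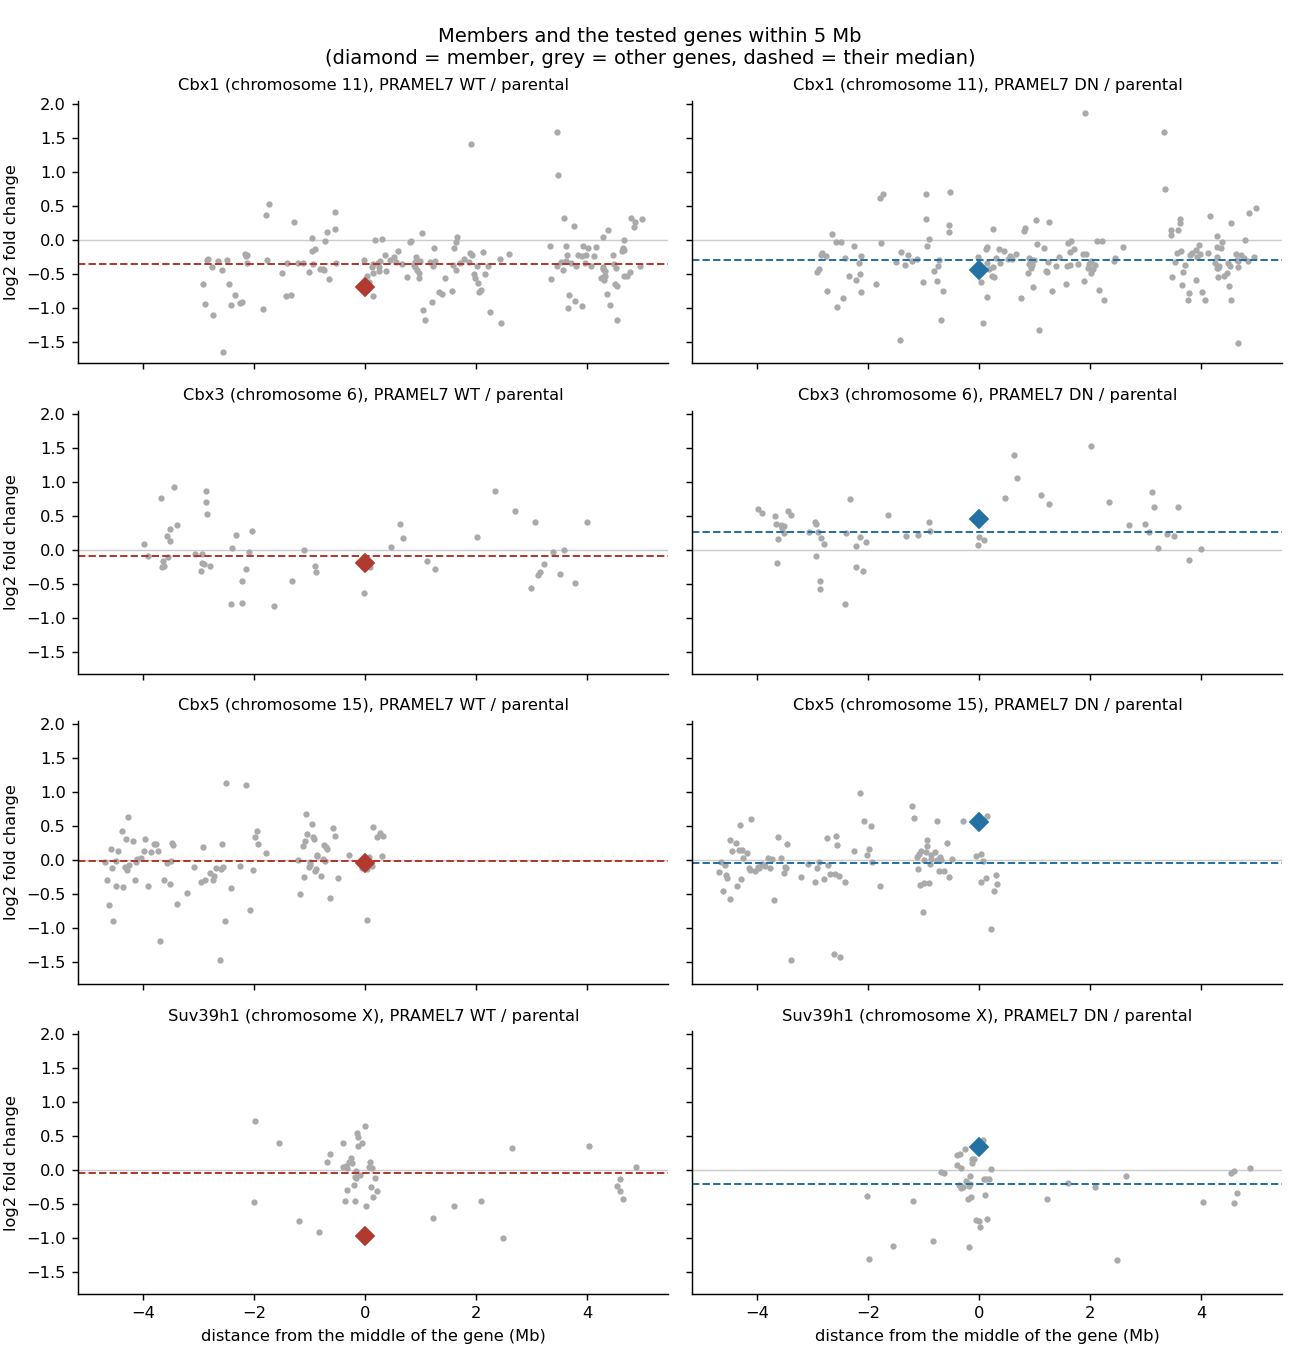
Log2 fold changes against parental ESCs (vertical axis) of *Cbx1*, *Cbx3*, *Cbx5* and *Suv39h1* (diamonds) and of the other tested genes within 5 Mb (grey dots), by distance in Mb (horizontal axis), for the WT line on the left and the ΔN line on the right. The dashed median of the neighbours lies at -0.35 and -0.29 around *Cbx1* and at 0.27 around *Cbx3* in the ΔN line, while *Suv39h1*, at -0.96 in the WT line, lies far below its neighbours' median of -0.04.

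The genes whose log2 levels over the 6 libraries were most like those of the HP1 genes were sought among 8559 genes with a mean of at least 10 CPM. For *Cbx1* these were *Ehbp1* (r = 0.9958), *Fut10* (r = 0.9956) and *Cox15* (r = 0.9953), of which *Ehbp1* lies on chromosome 11 as well. For *Cbx3* these were *Cdkn1b* (r = 0.9974), *Aqp3* (r = 0.9931) and *Sorl1* (r = 0.9927), of which *Cdkn1b* lies on chromosome 6 as well. For *Cbx5* these were *Zfp473* (r = 0.9981), *Sf3b1* (r = 0.9941) and *Ak3* (r = 0.9931). The 6 points are 3 pairs of dishes, so that each r mainly compares 3 lines, and these values are descriptions.

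Other genes of H3K9 methylation were taken from 6 lists, of which 5 had members above the filter, 55 genes in all. Of the 55, 3 rose and 10 fell in the WT line, and 3 rose and 9 fell in the ΔN line, where 8.71% of all tested genes rose and 16.3% fell in the former and 6.25% rose and 13.6% fell in the latter. With median-ratio scaling, 7 rose and 6 fell in the WT line. The 9 falls in the ΔN line hold *Brdt*, *Magea4*, *Tuba3b* and *Wfdc15a*, and the 10 in the WT line hold *Brdt*. The filter let these 4 genes in only through lines where they are high, as described for the genes restrained by G9a/GLP. The counts of falls therefore cannot be set against the shares of all tested genes.

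Partners of SETDB1 and TRIM28 and subunits of the HUSH complex, which silences transposons with SETDB1, had 19 tested genes. Of these, 6 fell in the WT line and 13 did not pass, where 16.3% of all tested genes fell, with a median log2 fold change of -0.21 against -0.08 over all tested genes. *Fam208a*, the HUSH subunit TASOR, gave 37.6 and 38.8 CPM in parental ESCs, 26.1 and 26.5 CPM in the WT line and 36.9 and 43.0 CPM in the ΔN line. The WT libraries lay below all others. Its log2 fold change was -0.52 in the WT line (SE 0.11, limma adjusted p = 0.0099) and 0.06 in the ΔN line (limma adjusted p = 0.76), and the direct difference was -0.58 (limma adjusted p = 0.00643). *Pphln1*, the HUSH subunit periphilin, gave 36.6 and 41.0 CPM in parental ESCs, 26.8 and 26.1 CPM in the WT line and 29.1 and 27.0 CPM in the ΔN line. It fell in both derived lines, by -0.53 (limma adjusted p = 0.00901) and -0.45 (limma adjusted p = 0.0197). *Sumo2*, a small ubiquitin-like modifier, fell in the WT line by -0.62 (SE 0.16, limma adjusted p = 0.0235), from 32.5 and 29.3 CPM to 21.7 and 18.0 CPM. Without WT library 1 or 2, these calls in the WT line were lost, with adjusted p of 0.0908 and 0.0804 for *Fam208a*, 0.0768 and 0.0882 for *Pphln1* and 0.0734 and 0.181 for *Sumo2*. The fall of *Pphln1* in the ΔN line had adjusted p of 0.0537, 0.0534, 0.0814 and 0.135 without WT library 1 or 2 or ΔN library 1 or 2. *Sumo2* lies on chromosome 11, as does *Morc2a*, a chromatin remodeler that works with HUSH.

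Of the same 19 genes, 3 rose and 3 fell in the ΔN line, where 6.25% of all tested genes rose and 13.6% fell, with a median of -0.10. *Smarcad1*, a chromatin remodeler, gave 114.9 and 97.5 CPM in parental ESCs and 129.9 and 157.1 CPM in the ΔN line (log2 fold change 0.43, limma adjusted p = 0.0338). *Zfp57*, a KRAB zinc finger protein that keeps imprints, gave 251.2 and 221.0 CPM against 310.1 and 305.6 CPM (0.38, limma adjusted p = 0.0151). *Trim24*, a relative of TRIM28, gave 118.5 and 116.5 CPM against 145.5 and 159.3 CPM (0.37, limma adjusted p = 0.016). Both ΔN libraries lay above both parental ones for these 3 genes. *Smarcad1* and *Trim24* lie on chromosome 6. *Morc2a* fell by -0.32 (limma adjusted p = 0.0296), from 195.5 and 178.0 CPM to 148.2 and 150.7 CPM. It fell in the WT line too, by -0.50 (limma adjusted p = 0.00444) to 135.1 and 128.4 CPM, and the direct difference of -0.18 did not pass (limma adjusted p = 0.166). Each of these 4 calls in the ΔN line was lost without ΔN library 1 or 2, with adjusted p of 0.0547 and 0.246 for *Smarcad1*, 0.108 and 0.0886 for *Zfp57*, 0.0595 and 0.139 for *Trim24* and 0.167 and 0.13 for *Morc2a*. Those of *Smarcad1* and *Morc2a* were lost without WT library 1 (0.067 and 0.0767) or 2 (0.0667 and 0.0762) as well, and that of *Smarcad1* without parental library 2 (0.052).

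Other enzymes of H3K9 methylation and partners of G9a/GLP gave 7 tested genes. Where 16.3% and 13.6% of all tested genes fell in the WT and ΔN lines, 1 of the 7 fell in each. In the WT line this was *Zfp644*, a zinc finger partner of G9a/GLP, with 34.1 and 33.6 CPM in parental ESCs and 24.5 and 26.5 CPM in the WT line (log2 fold change -0.40, limma adjusted p = 0.0338). For the ΔN line it was *Cdyl*, a chromodomain protein that binds methylated H3K9, with 72.3 and 77.9 CPM in parental ESCs and 46.4 and 51.7 CPM in the ΔN line (-0.60, limma adjusted p = 0.00321). Without WT library 1 or 2, *Zfp644* had adjusted p of 0.223 and 0.125, whereas *Cdyl* passed in all 16 alternatives. Medians over the list were -0.22 and -0.25.

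Partners of HP1 gave 13 tested genes. *Ahdc1* passed as higher in the WT line and 12 did not pass, where 8.71% of all tested genes passed as higher and 16.3% as lower. *Ahdc1* had 65.1 and 100.3 CPM in parental ESCs and 109.1 and 136.9 CPM in the WT line (log2 fold change 0.59, limma adjusted p = 0.0469). It lost the call in 10 of 16 alternatives, among them each removal of a WT or a ΔN library or of parental library 1, with values from 0.28 to 0.90 over the removals. For the ΔN line, limma called 0 of the 13, where it called 19.9% of all tested genes. Of the 13, voom called 0, and 1 had an unadjusted p under 0.05. *Chd4*, the NuRD ATPase, had a log2 fold change of -0.21 in the WT line and 0.02 in the ΔN line and passed in neither.

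Of 10 tested H3K9 demethylases, 1 rose and 2 fell in the WT line, where 8.71% of all tested genes rose and 16.3% fell. The median of the 10 was -0.08. *Phf8*, which removes dimethyl H3K9, fell from 50.6 and 46.9 CPM to 38.7 and 34.5 CPM (log2 fold change -0.41, limma adjusted p = 0.021). Without WT library 1 or 2, its adjusted p was 0.0805 and 0.193. *Phf2* had a log2 fold change of 0.98 (limma adjusted p = 0.00239) and *Kdm7a* one of -0.66 (limma adjusted p = 0.0162). These 2 related genes lay under a mean of 10 CPM and were named after their values were seen. For the ΔN line, limma called 0 of the 10, where it called 19.9% of all tested genes. Of the 10, voom called 0, and 1 had an unadjusted p under 0.05.

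Genes that G9a/GLP is known to restrain are mostly germline genes, and 6 of 14 in the list could be tested. Of these 6, only *Tuba3a* and *Taf7l* exceeded the filter in every line. *Brdt* passed it through the parental libraries alone, and *Magea4*, *Tuba3b* and *Wfdc15a* through parental and WT libraries alone. The other libraries could hardly be anything but lower. These 4 genes are held in the counts over all 55 genes, but no test of them is given here. *Tuba3a*, an alpha tubulin of the testis, gave 62.2 and 82.1 CPM in parental ESCs, 260.8 and 250.0 CPM in the WT line and 23.9 and 23.0 CPM in the ΔN line. The lines did not overlap. It rose in the WT line by 1.82 (SE 0.13, limma adjusted p = 0.000112) and fell in the ΔN line by -1.57 (SE 0.13, limma adjusted p = 8.05e-05). *Brdt*, a bromodomain protein of the testis, gave 2.99 and 4.07 CPM in parental ESCs, 0.506 and 0.441 CPM in the WT line and 0.251 and 0.528 CPM in the ΔN line. All derived libraries lay below both parental ones. *Magea4* gave 1.60 and 2.01 CPM in parental ESCs, 2.84 and 2.20 CPM in the WT line and 0 and 0.106 CPM in the ΔN line, where the libraries held 0 and 2 reads of it. The calls of *Tuba3a* held in all 17 alternatives, while over those other than the removal of a library its log2 fold change ran from 1.32 to 1.92 in the WT line and from -1.61 to -0.72 in the ΔN line. *Tuba3a* and its near copy *Tuba3b* may share reads.

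Among genes of 2-cell-like cells restrained by TRIM28 and SETDB1, such as the *Zscan4* family, 19 of 20 symbols were in the table, and 0 passed the filter of 1 CPM in 2 libraries, so that no test was made. They belong to multicopy families whose reads could match several places.

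**Figure D5:**
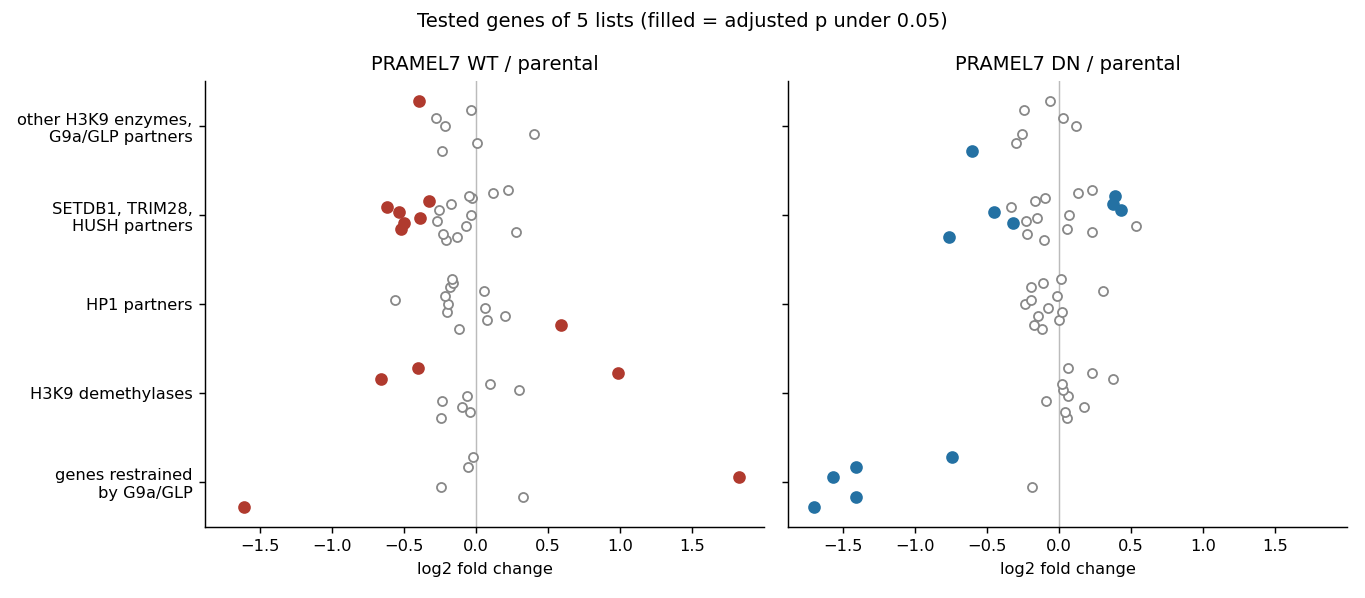
Log2 fold changes against parental ESCs (horizontal axis) of the tested genes of 5 lists (vertical axis), for the WT line on the left and the ΔN line on the right; each dot is a gene, and filled dots have an adjusted p under 0.05 in limma. In the WT line 6 of 19 partners of SETDB1, TRIM28 and HUSH are filled, all below 0, where 16.3% of all tested genes fell. *Tuba3a* lies farthest to the right in the WT line, at 1.82, and at -1.57 in the ΔN line. The filter let 4 of the 6 genes restrained by G9a/GLP in only through lines where they are high, so their dots below 0 show no trend of the list.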

How the data were processed

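RNA of 6 libraries was analysed here; ChIP samples were not used. Per the labels, libraries were poly(A)-enriched and unstranded. The methods name SortMeRNA, Trimmomatic and STAR on mm10, whereas the submitters' processing notes name Bowtie2 2.3.4.3 and Subread 1.4.6-p4. The authors deposited RPKM values computed with the span of each gene (GENCODE vM21), introns included. RPKM was multiplied by that span and 1 constant for all libraries, which gave CPM with the authors' scaling, and whole reads. Of the 50978 genes, 47940 were matched to 1 gene each. The authors' tables of comparisons, with fold changes and P values, were not used. Fits used limma 3.58.1 (R 4.3.3) with a mean-variance trend, a pseudocount of 1 and all 6 libraries, and were tested on simulated data. Copies were sought with blastn 2.17.0. Figures used matplotlib 3.10.9. Dishes are the replicates. The p-values rest on the spread between dishes of a line, pooled over the 3 lines and moderated by the trend over all tested genes. Named genes were the 9 genes and, from each list, up to 3 per direction with the largest called change, a mean of at least 10 CPM (1 CPM for restrained genes) and no overlap with parental ESCs. The alternatives were pseudocounts of 0.1 and 5, no filter, 10 CPM, a replicate block, only the 2 lines compared, median-ratio scaling, no trend, voom, RPKM as deposited, the study's limits and leaving out each library. Members and lists were chosen with earlier results of these data known.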

Additional observations from a re-analysis of the deposited data

Results flagged for a closer look

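The derived lines differed for 3 of the 9 genes by their direct contrast in limma, where 20.4% of all tested genes passed. The log2 fold change of the WT line over the ΔN line was -1.31 for *Suv39h1* (adjusted p = 0.000164), -0.65 for *Cbx3* (adjusted p = 0.00585) and -0.61 for *Cbx5* (adjusted p = 0.00802). The call of *Cbx3* was lost with a loess correction (adjusted p = 0.0664), and clone, transgene level and deletion cannot be told apart. For each of the 3 genes, both WT libraries lay below both ΔN libraries. The 602 other tested genes on chromosome 6, where *Cbx3* lies, had a median of -0.39 between the derived lines.

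The named list genes were chosen for changes against parental ESCs, so differences between the derived lines are in part built in. Of the 55 list genes, 10 were higher and 7 lower in the WT line, where 20.4% of all tested genes passed. The 10 hold *Magea4*, *Tuba3b* and *Wfdc15a*, which passed the filter only through parental and WT libraries. The number higher therefore cannot be set against that share. Single values of the list genes between the derived lines were not followed under the alternatives. Among the named list genes, *Tuba3a* (3.39), *Ahdc1* (0.77) and *Cdyl* (0.37) were higher in the WT than in the ΔN line, with adjusted p values of 6.1e-07, 0.0204 and 0.028 from limma. *Magea4* had a fitted value of 1.74, which rests on 0 and 2 reads in the ΔN line and depends on the pseudocount, and it passed the filter only through the other lines. *Smarcad1* (-0.69), *Fam208a* (-0.58), *Trim24* (-0.55), *Phf8* (-0.46) and *Zfp57* (-0.43) were lower, with adjusted p values of 0.00435, 0.00643, 0.0027, 0.0138 and 0.00935 from limma. *Smarcad1*, *Trim24* and *Tuba3a* lie on chromosome 6, as *Cbx3* does.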

How the results depend on the processing

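Of 444 values of the 9 genes under alternatives, 393 kept direction and side of the threshold, 19 lost a call, 12 gained one and 20 changed sign. The falls of *Suv39h1* and *Cbx1* in the WT line against parental ESCs kept their calls in all 16 and 17 alternatives that gave a value, with adjusted p up to 0.0272 and 0.0311. Signs turned only for values that had not passed. With median-ratio scaling, *Cbx5* became 0.054, *Setdb1* 0.009, *Suv39h2* 0.027 and *Ehmt1* 0.021 in the WT line, and *Trim28* 0.050 and *Suv39h2* 0.049 in the ΔN line. With a loess correction (span 0.5) for GC content and exon length, chosen after seeing the data, *Cbx3* became 0.030, *Cbx5* 0.131, *Trim28* -0.025 and *Suv39h2* 0.069 in the WT line and *Suv39h2* 0.093 between the derived lines, where *Cbx3* lost its call (-0.452, adjusted p = 0.0664). Leaving out 1 library turned signs within -0.238 to 0.149 for *Cbx5* and -0.158 to 0.005 for *Ehmt1* in the WT line, within -0.120 to 0.053 for *Trim28*, -0.176 to 0.115 for *Suv39h2* and -0.305 to 0.003 for *Ehmt2* in the ΔN line, and within -0.183 to 0.108 for *Suv39h2* between the derived lines. The causes were not tested.

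Of the 9 genes, the calls in the ΔN line against parental ESCs moved most. The 2 higher calls became 0 without a filter, 1 with only the lines compared, 1 without the trend, 0 with RPKM as deposited and 0 with the study's limits, which also left 0 lower calls, and 3 with median-ratio scaling or loess, where *Suv39h1* passed. Between the derived lines, 1 gene instead of 0 was higher with only those lines or with median-ratio scaling. RPKM as deposited, which kept 4 of the 9 genes, left 1 lower call in the WT line and 1 between the derived lines. Over leaving out each library, higher and lower calls were 0 to 1 and 2 to 3 in the WT line, 0 to 2 and 0 to 2 in the ΔN line and 0 to 1 and 1 to 4 between the derived lines.

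RPKM as deposited kept 10 of the 55 list genes and the filter of 10 CPM kept 45, so that fewer could be called. Of the 55, the WT line had 3 higher and 10 lower calls, which became 7 and 6 with median-ratio scaling, 1 and 0 with RPKM as deposited, 5 lower without a filter and 3 lower with the study's limits. The ΔN line had 3 higher and 9 lower, which became 1 and 1 with RPKM as deposited, 0 higher without the trend or with the study's limits and 4 lower with a filter of 10 CPM. Between the derived lines, 10 were higher and 7 lower in the WT line, where 10.9% and 9.45% of all tested genes were. As stated above, the filter let 4 of the 55 genes in only through lines where they are high. Of these, *Magea4*, *Tuba3b* and *Wfdc15a* are among the 10 higher, so that number cannot be set against the share of all tested genes. The counts became 1 and 1 with RPKM as deposited, and 6 higher without a filter or with a filter of 10 CPM. With only the derived lines 15 were lower, and with the study's limits 4 were lower. Over leaving out each library, higher and lower calls were 2 to 5 and 1 to 14 in the WT line, 0 to 6 and 5 to 13 in the ΔN line and 3 to 12 and 2 to 15 between the derived lines. Among the named list genes, leaving out the filter ended the calls against parental ESCs of *Zfp644*, *Sumo2*, *Smarcad1*, *Morc2a* and *Ahdc1*, and leaving out the trend those of *Zfp644*, *Smarcad1*, *Zfp57*, *Trim24*, *Morc2a* and *Ahdc1*. Fitting only the lines compared ended those of *Pphln1* (ΔN line), *Smarcad1*, *Morc2a* and *Ahdc1*, median-ratio scaling those of *Zfp644*, *Phf8* and *Morc2a*, and loess those of *Zfp644* and *Fam208a*.

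Over all genes, median-ratio scaling moved 1125 higher and 2109 lower calls in the WT line to 1752 and 1445, and 807 and 1759 in the ΔN line to 1167 and 1326, as it shifted the median log2 fold change from -0.08 to 0.01 and from -0.06 to 0.02.

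Replicate numbers name dishes and pair nothing across lines by the labels. Deviations of same-numbered libraries correlated at 0.207, -0.25 and -0.103 over the 3 pairs of lines. With a replicate block, the 9 genes had 2 lower calls in the WT line, 2 higher and 1 lower in the ΔN line and 3 lower between the derived lines, and the calls of *Smarcad1* (adjusted p = 0.0586) and *Ahdc1* (adjusted p = 0.0554) were lost.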
